A study of Mus musculus with 8 samples.

Results

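DNA methylation at the regulatory elements of Foxp3, the transcription factor that defines regulatory T cells, is one of the features linked to how long these cells keep their identity. The 9 genes described here encode the enzymes that write, copy, read and remove this mark: the maintenance methyltransferase Dnmt1, its recruiting partner Uhrf1 and the paralogue Uhrf2, the de novo methyltransferases Dnmt3a and Dnmt3b, the methyl-CpG reader Mbd2, and the dioxygenases Tet1, Tet2 and Tet3. They were chosen for these roles from the 23361 genes in the deposited table, and all 9 were found in it by symbol. Of the 9, 8 passed a filter of a mean of at least 1 FPKM over the 8 libraries, as did 10467 genes in all. FPKM is a fragment count divided by transcript length and by the mapped fragments of the library. Tet1 did not pass, and its values are given from a fit without the filter.

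The cells were Foxp3-RFP+ iTreg, regulatory T cells made in culture out of naive splenic CD4+ T cells of male wild-type Foxp3-RFP reporter mice on the B6 background with anti-CD3/CD28 beads, IL-2 at 50 U/ml and TGF-β at 2 ng/ml according to the labels. All libraries share this genotype and treatment, and the labels set the groups apart by surface Nrp-1: 4 libraries came from Nrp-1+ iTreg and 4 from Nrp-1- iTreg. The labels give 3 days of differentiation in their protocol and day 5 in their time field, the paper's methods place the sort on day 3, and the sources give different IL-2 amounts and library kits. The labels number biological replicates 1 to 4 in each group without saying whether they were separate mice or cultures, so p values measure the spread between these libraries. In the bulk libraries, more cells of a kind and more transcript per cell cannot be told apart.

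Nrp1 encodes the protein used for the sort, and it was at 21.5 ± 0.709 FPKM (SD, n = 4) in the Nrp-1+ subset against 4.95 ± 0.262 FPKM in the other (log2 difference 1.92). Foxp3 was at 116 ± 3.72 FPKM and 108.8 ± 1.2 FPKM, and Cd3e, Cd3d and Cd4 were present in every library. All 3 of these T cell genes had lower means in Nrp-1+ iTreg, and Cd3d was called lower (437 against 496 FPKM, log2 difference -0.18, adjusted p = 0.0037 by limma). Read from the lowest values, relative depth ranged from 0.810 to 1.24 of the first library. Differences are given as Nrp-1+ minus Nrp-1- iTreg on log2(FPKM + 1), a scale that understates the change of low genes, with p values by limma adjusted over all 10467 genes. By this test 40.9% of the genes differed at an adjusted p under 0.05, with 20.9% higher and 20.0% lower in Nrp-1+ iTreg, so a call on a single gene was common in these data. The higher genes were 51.1% of those called, and 40.03% once GC content and length had been regressed out. The median difference of all tested genes was -0.016, and the median size of a called difference was 0.22.

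Maintenance methylation works at the replication fork. UHRF1 binds hemimethylated CpG sites left by DNA synthesis and ubiquitinates histone H3, which recruits and activates DNMT1 to methylate the new strand. When this copying falls behind cell division, methylation is diluted. TET enzymes oxidize methylcytosine, and the oxidized bases are lost with division or excised and replaced. In mature regulatory T cells the second conserved non-coding sequence of Foxp3, called CNS2 or TSDR, is demethylated, while TGF-β-induced cells commonly carry it methylated.

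Both genes at the centre of maintenance were higher in Nrp-1+ iTreg, by 70.1% for Dnmt1 and by 99.0% for Uhrf1 as ratios of group means. Dnmt3b and Tet3 were lower, by 22.5% and 15.5%. The other 4 genes tested, Uhrf2, Dnmt3a, Tet2 and Mbd2, did not pass. Of the 8 genes tested, 2 were thus called higher and 2 lower, beside 20.9% and 20.0% of all genes. In these 4 genes the groups did not overlap, as in 39.5% of all genes tested.

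**Figure D1:**
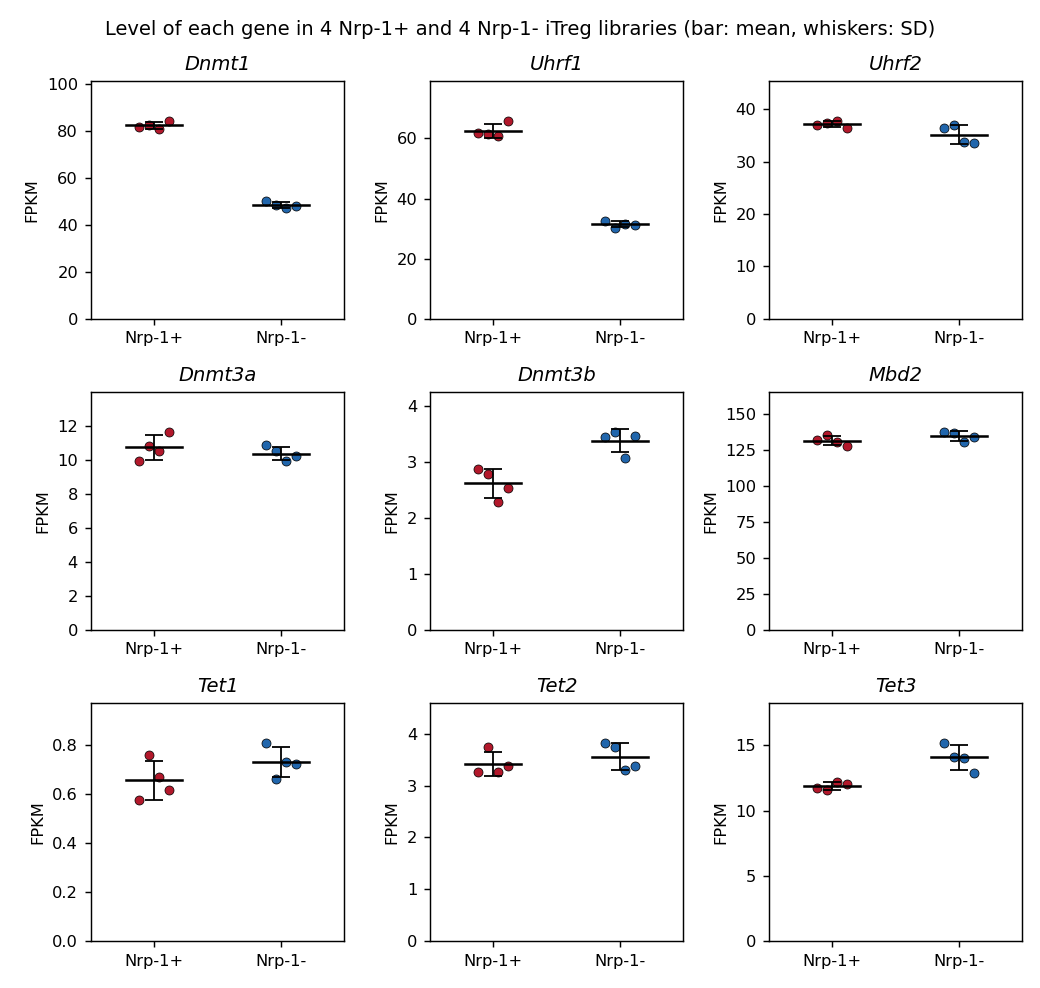
FPKM (vertical axes, from 0) of the 9 genes in each of the 4 Nrp-1+ iTreg (red) and 4 Nrp-1- iTreg (blue) libraries, with the mean as a bar and the SD as whiskers. The red and blue points are fully apart for Dnmt1, Uhrf1, Dnmt3b and Tet3 and overlap for the other 5 genes.

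Dnmt1, which copies methylation onto newly made DNA, was at 81.9, 82.6, 80.9 and 84.5 FPKM in replicates 1 to 4 of Nrp-1+ iTreg. The Nrp-1- iTreg libraries held 50.0, 48.7, 47.2 and 48.0 FPKM. Every Nrp-1+ library lay above every Nrp-1- library, and the gap between the groups was far wider than the spread within either. The means were 82.5 ± 1.5 FPKM (SD, n = 4) and 48.5 ± 1.2 FPKM, a log2 difference of 0.75 (standard error 0.024, adjusted p = 2.54e-07 by limma). It ranked 242 by size among the 2189 genes called higher.

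Uhrf1, the reader that brings DNMT1 to hemimethylated sites, was at 61.9, 61.5, 60.8 and 65.9 FPKM in Nrp-1+ iTreg. In Nrp-1- iTreg it was at 32.5, 30.2, 31.7 and 31.3 FPKM. The groups again did not overlap, with replicate 4 of Nrp-1+ iTreg the highest library. The means were 62.5 ± 2.30 FPKM (SD, n = 4) and 31.4 ± 0.973 FPKM, with a log2 difference of 0.97 (standard error 0.033, adjusted p = 3.19e-07 by limma). It ranked 29 by size among those 2189 genes and had the largest difference of the 8 genes tested.

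Uhrf2, the paralogue of Uhrf1, spanned 36.4 to 37.8 FPKM in Nrp-1+ libraries against 33.6 to 36.9 FPKM in Nrp-1- libraries. These ranges overlapped. The log2 difference was 0.079 (95% interval -0.0034 to 0.16, adjusted p = 0.114 by limma), and on the FPKM + 1 scale the interval runs from 0.998-fold to 1.12-fold. The order of the paralogues differed between the groups: in Nrp-1+ iTreg every Uhrf1 value lay above every Uhrf2 value, and in Nrp-1- iTreg every Uhrf1 value lay below.

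Promoter sequence was examined because Dnmt1 and Uhrf1 moved together with replication genes, many of which are known targets of E2F factors. RefSeq promoter windows (250 bases before to 50 after a transcription start, build GRCm38.p6) were given for 8 of the 9 genes, Mbd2 being the one without. The letters searched were TTTGGCGC, TTTCCCGC, TTTCGCGC and TTTGCCGC, spellings of the E2F consensus, on both strands. Of all 32851 windows, 2.26% held at least 1 of them, and 2.60% of the 27025 genes with a window had such a window. Among the 8 genes, which have 13 windows, only Dnmt1 and Uhrf1 did, each at 1 of its annotated starts. The 3 windows below are printed 5′ to 3′ on the gene's strand with the E2F letters in capitals, and Uhrf2 is shown as the paralogue without them. They lie at chr9:20952574-20952873 (minus strand, Dnmt1), chr17:56304063-56304362 (plus strand, Uhrf1) and chr19:30030263-30030562 (plus strand, Uhrf2).
Dnmt1: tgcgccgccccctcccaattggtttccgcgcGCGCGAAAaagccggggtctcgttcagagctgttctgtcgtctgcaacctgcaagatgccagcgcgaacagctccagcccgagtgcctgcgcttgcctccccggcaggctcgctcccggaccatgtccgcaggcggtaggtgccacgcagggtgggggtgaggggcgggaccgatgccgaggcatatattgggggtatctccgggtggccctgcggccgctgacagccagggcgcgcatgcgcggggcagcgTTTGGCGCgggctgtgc
Uhrf1: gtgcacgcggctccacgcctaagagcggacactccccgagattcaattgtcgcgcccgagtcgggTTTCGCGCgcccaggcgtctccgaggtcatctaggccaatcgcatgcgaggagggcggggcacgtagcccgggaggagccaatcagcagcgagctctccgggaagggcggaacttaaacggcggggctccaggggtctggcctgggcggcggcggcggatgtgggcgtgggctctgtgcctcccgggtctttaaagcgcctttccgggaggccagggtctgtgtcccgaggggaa
Uhrf2: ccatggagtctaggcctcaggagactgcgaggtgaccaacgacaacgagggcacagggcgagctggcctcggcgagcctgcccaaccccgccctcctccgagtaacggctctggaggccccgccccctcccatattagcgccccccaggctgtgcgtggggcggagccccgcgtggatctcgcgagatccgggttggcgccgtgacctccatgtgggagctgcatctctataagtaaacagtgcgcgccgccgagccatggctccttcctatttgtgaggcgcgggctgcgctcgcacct

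In the Dnmt1 window the letters began at -219 on the opposite strand and at +34 on the gene's strand. Positions are counted from the annotated start of the window itself as +1. In the Uhrf1 window the letters began at -185 on the gene's strand. Both windows lie downstream of the other annotated starts of their genes. A negative position here is thus not upstream of the gene as a whole. The Dnmt1 window held 33 CpG dinucleotides, as did that of Uhrf1, and that of Uhrf2 held 28, against a median of 7 over all windows. The other 2 windows of Dnmt1, with 2 and 12 CpG dinucleotides, and the other 1 of Uhrf1, with 12, held none of the letters. Among tested genes with a window, the letters occurred in 9.93% of the 1651 called higher, 2.68% of the 1605 called lower and 4.48% of the 4445 not called. A match of letters is not a binding site, and binding was not measured. Every spelling searched contains a CpG, and the shares were not matched for CpG content. They cannot separate the letters from CpG-rich windows in general, and a role of E2F factors was not tested.

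**Figure D2:**
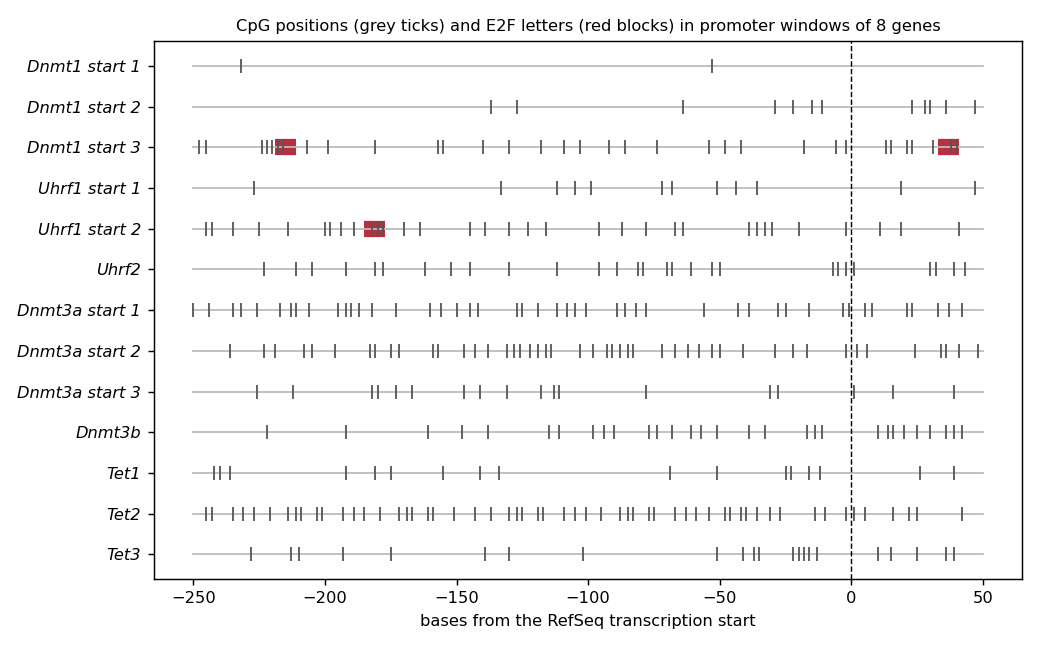
Positions of CpG dinucleotides (grey ticks) and of the E2F letters (red blocks) relative to each window's own transcription start (horizontal axis, in bases) in the 13 RefSeq promoter windows of 8 genes, with genes of several starts on several lines. Red blocks appear in 1 window of Dnmt1 and 1 window of Uhrf1 only, and the number of CpG dinucleotides runs from 2 to 57 a window.

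Of the de novo methyltransferases, Dnmt3b was called lower in Nrp-1+ iTreg and Dnmt3a was not called. Dnmt3a, which sets new methylation marks in activated T cells, spanned 9.95 to 11.6 FPKM in Nrp-1+ libraries against 9.91 to 10.8 FPKM in Nrp-1- libraries. The ranges overlapped, and the log2 difference of 0.044 did not pass (95% interval -0.066 to 0.15, adjusted p = 0.490 by limma). Dnmt3b, the other de novo enzyme, was at 2.87, 2.79, 2.29 and 2.53 FPKM in Nrp-1+ iTreg. It was at 3.46, 3.54, 3.07 and 3.46 FPKM in Nrp-1- iTreg. All Nrp-1+ libraries lay below all Nrp-1- libraries, although at low levels in both. The means were 2.62 ± 0.263 FPKM (SD, n = 4) and 3.38 ± 0.211 FPKM, with a log2 difference of -0.28 (standard error 0.066, adjusted p = 0.0106 by limma).

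Mbd2 binds methylated CpG sites and brings the NuRD repressor complex to them. It was the most abundant of the 9 transcripts in either group, with 127.8 to 135.5 FPKM in the Nrp-1+ subset and 130.5 to 137.8 FPKM in the Nrp-1- subset. The groups overlapped, and the 95% interval of the log2 difference (-0.097 to 0.024, adjusted p = 0.30 by limma) runs from 0.935-fold to 1.02-fold on the FPKM + 1 scale.

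Of the TET dioxygenases only Tet3 passed the test. Tet3 was at 11.7, 11.6, 12.2 and 12 FPKM in Nrp-1+ iTreg, against 15.2, 14.1, 14.0 and 12.9 FPKM in Nrp-1- iTreg. The groups did not overlap, and the Nrp-1- libraries were spread more widely, with replicate 1 the highest and replicate 4 the lowest. The means were 11.9 ± 0.298 FPKM (SD, n = 4) and 14.1 ± 0.932 FPKM, with a log2 difference of -0.22 (standard error 0.046, adjusted p = 0.00516 by limma). Tet2, the TET enzyme most studied in T cell lineages, ranged from 3.26 to 3.75 FPKM and from 3.30 to 3.83 FPKM, which overlapped (log2 difference -0.047, 95% interval -0.18 to 0.088, adjusted p = 0.554 by limma). Tet1 was the lowest of the 9 genes, at 0.574 to 0.759 FPKM in the Nrp-1+ subset and 0.660 to 0.807 FPKM in the Nrp-1- subset. In the fit without the filter its log2 difference was -0.065 (95% interval -0.16 to 0.035, adjusted p = 0.338 by limma over the 16289 genes with any value above 0).

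FPKM is scaled by transcript length, so levels can be ordered across genes. In Nrp-1+ iTreg the order of mean FPKM was Mbd2, Dnmt1, Uhrf1, Uhrf2, Tet3, Dnmt3a, Tet2, Dnmt3b and Tet1, and neighbours overlapped only for Tet3 and Dnmt3a. In Nrp-1- iTreg Uhrf2 stood above Uhrf1 and the rest of the order was the same. There Tet3 and Dnmt3a were apart, and Tet2 and Dnmt3b overlapped. In both groups Tet3 was the most abundant TET transcript and Dnmt1 the most abundant methyltransferase transcript.

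Ratios between genes of the same library do not depend on its scaling. Of the 6 ratios tested, 5 had groups that did not overlap, each with p = 0.0286 by an exact two-sided permutation test and 0.0343 after Benjamini-Hochberg adjustment over the 6. With 4 libraries against 4, 0.0286 is the smallest p this test can give. The ratios were chosen with earlier results known, and Uhrf1 to Uhrf2, Dnmt3b to Dnmt3a and Tet3 to Tet2 each pair a called gene with one that was not called, so their p values are not independent of the calls above. The ratio of Uhrf1 to Uhrf2 ranged from 1.61 to 1.81 in the Nrp-1+ subset and from 0.818 to 0.938 in the Nrp-1- subset. The ratio of Uhrf1 to Dnmt1 ranged from 0.745 to 0.780 and from 0.620 to 0.670, so Uhrf1 rose more than Dnmt1 in relative terms, by 0.23 on the log2 scale. Dnmt3b stood at 0.217 to 0.289 of Dnmt3a in Nrp-1+ iTreg and at 0.310 to 0.339 in Nrp-1- iTreg. Tet3 was 3.08 to 3.75 times Tet2 in Nrp-1+ iTreg and 3.77 to 4.26 times in Nrp-1- iTreg, where the gap between the groups was narrow.

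**Figure D3:**
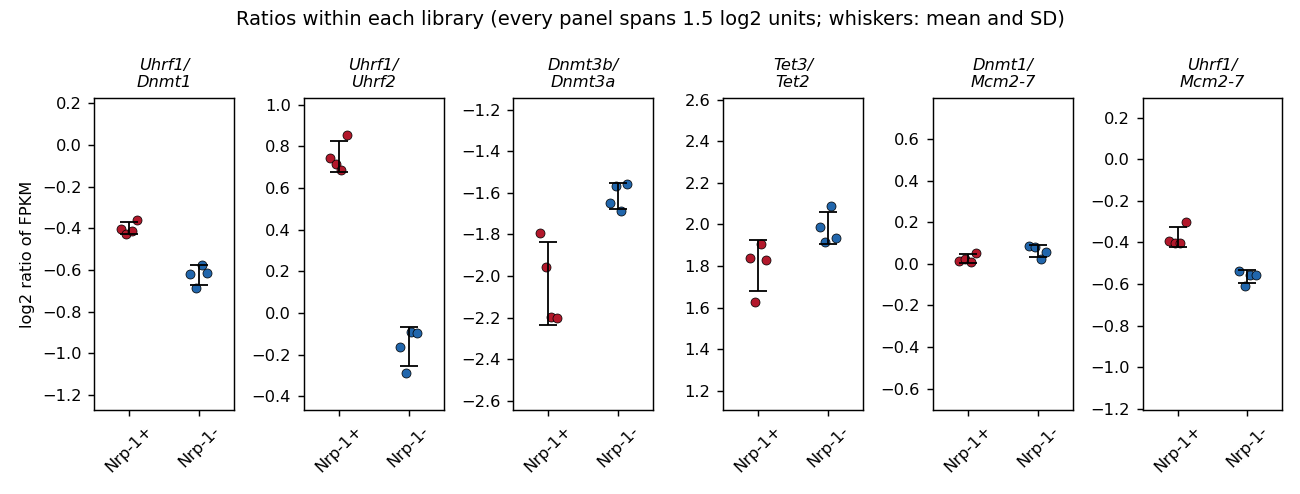
The log2 ratio of FPKM of 6 gene pairs in each library (vertical axes, each spanning 1.5 log2 units), with Nrp-1+ iTreg in red, Nrp-1- iTreg in blue and whiskers for mean and SD; Mcm2-7 stands for the geometric mean of Mcm2 to Mcm7. The widest gap is that of Uhrf1 to Uhrf2, where the difference of means is 0.91, and only Dnmt1 to Mcm2-7 has overlapping groups.

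Dnmt1 and Uhrf1 are transcribed mostly in dividing cells, and the replication genes moved with them. Of 25 replication genes, all 25 were higher in Nrp-1+ iTreg, with log2 differences from 0.30 to 1.00 and a median of 0.80, beside -0.016 over all genes. Their summed FPKM was 1230 to 1247 in the Nrp-1+ subset and 749.6 to 759.3 in the Nrp-1- subset. The largest were Mcm5, a subunit of the replicative helicase (83.0 against 41.0 FPKM, log2 difference 1.00), and Pole, the catalytic subunit of DNA polymerase epsilon (16.2 against 7.97 FPKM, 0.94). Only 1 of the 25 had a larger difference than Uhrf1, and 15 had a larger difference than Dnmt1. Dnmt1 relative to the geometric mean of Mcm2 to Mcm7 ranged from 1.01 to 1.04 in the Nrp-1+ subset and from 1.01 to 1.06 in the Nrp-1- subset, which overlapped (exact two-sided permutation test, p = 0.114, adjusted 0.114). Uhrf1 relative to the same genes was higher in Nrp-1+ iTreg, with 0.756 to 0.810 against 0.656 to 0.690, a difference of 0.19 on the log2 scale (exact two-sided permutation test, p = 0.0286). The share of cells in S phase was not measured, and its part in these differences was not tested.

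**Figure D4:**
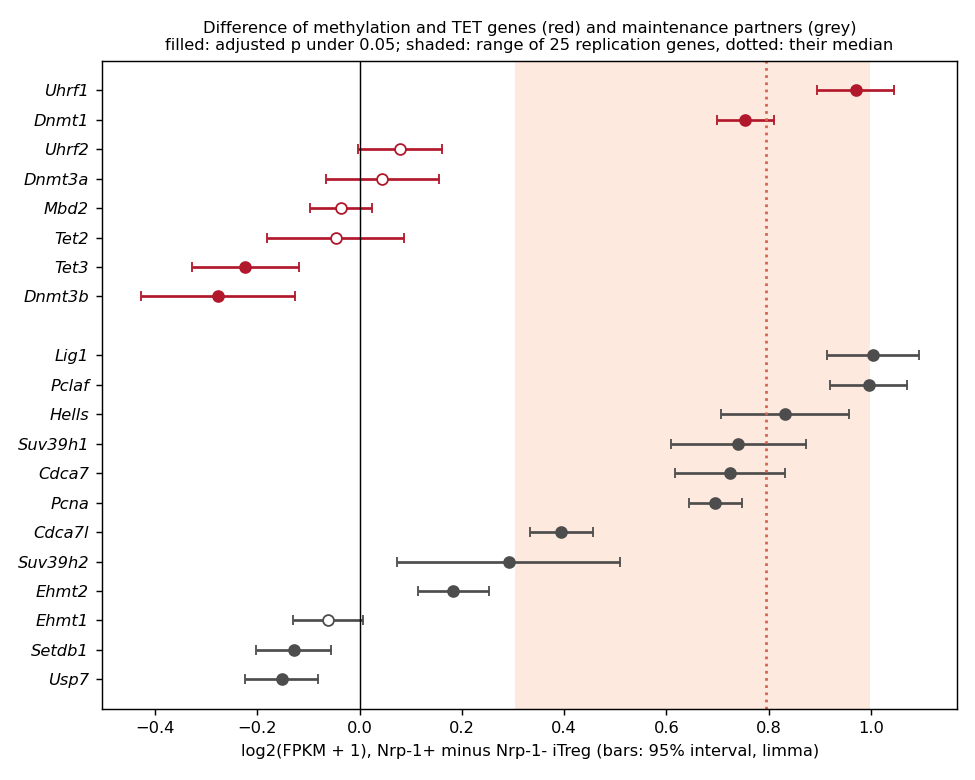
Difference in log2(FPKM + 1), Nrp-1+ minus Nrp-1- iTreg (horizontal axis), with 95% intervals by limma, for the 8 tested methylation and TET genes (red) and 12 maintenance partners (grey); filled points passed at an adjusted p under 0.05. The shaded band is the range of 25 replication genes (0.30 to 1.00) and the dotted line their median; Uhrf1 and Dnmt1 lie within it and the other 6 red points lie below it.

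Other genes of maintenance methylation, in a list of 13, were described by counts. Of the 12 tested, 9 were higher and 2 lower, and the median log2 difference was 0.54. Lig1, the ligase that joins nascent DNA and binds UHRF1 when methylated, was at 62.2 against 30.5 FPKM (log2 difference 1.00, adjusted p = 5.24e-07 by limma). Pclaf (listed as 2810417H13Rik), a partner of the PCNA clamp that takes part in recruiting DNMT1, was at 153 against 76.2 FPKM (1.00). Hells, a chromatin remodeller needed for normal methylation, was at 18.0 against 9.66 FPKM (0.83), and its partner Cdca7 at 17.2 against 10.0 FPKM (0.72). Pcna itself was at 500.9 against 308.9 FPKM (0.70). In contrast Usp7, a deubiquitinase that binds DNMT1 and UHRF1, was lower (42.3 against 47.2 FPKM, log2 difference -0.15, adjusted p = 0.00512 by limma), as was the histone H3 methyltransferase Setdb1 (11.7 against 12.9 FPKM, -0.13). The E2F letters were found in promoter windows of 5 of the 12 genes of this list that have one (Hells, Cdca7, Lig1, Pclaf and Suv39h1) and of 10 of 19 replication genes, beside 9.93% of tested genes called higher and 2.60% of all genes with a window. They were found in none of 7 genes listed with the methyl-CpG readers, 9 NuRD subunits, 16 TET partners and base excision genes and 13 S-adenosylmethionine genes, in 1 of 7 CNS2 binding factors (Rel) and in 1 of 12 germline genes (Sycp3). These shares were not matched for CpG content either.

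Mbd2 is one of a family of readers. Of 9 other methyl-CpG readers, 2 were higher and 1 lower, with a median of -0.040. Mbd4, a reader that is also a glycosylase repairing deaminated methylcytosine, was at 4.97 against 3.36 FPKM (log2 difference 0.45, adjusted p = 0.000112 by limma), and Mbd1 at 23.8 against 21.8 FPKM (0.12). Zbtb4, a zinc-finger reader, was at 8.33 against 10.1 FPKM (-0.25). Mbd3 (43.8 against 43.5 FPKM, adjusted p = 0.787) did not pass. Of 12 NuRD subunits, the complex that Mbd2 recruits, 6 were higher and 2 lower, with a median of 0.085. The histone chaperone Rbbp7 (121 against 89.5 FPKM, 0.43) and Cdk2ap1 (83.2 against 64.2 FPKM, 0.37) rose most, and Mta3 (54.1 against 61.9 FPKM, -0.19) and Chd3 (74.9 against 83.3 FPKM, -0.15) fell most.

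On the demethylation side, 16 of 20 partners of TET enzymes and base excision genes were tested, and 5 were higher and 3 lower, with a median of 0.081. Neil3, a glycosylase known from proliferating cells, had the largest difference (26.1 against 13.6 FPKM, log2 difference 0.90, adjusted p = 4.56e-07 by limma), followed by the uracil glycosylase Ung (3.48 against 2.54 FPKM, 0.34). Smug1, another uracil glycosylase (2.23 against 2.92 FPKM, -0.28), Polb, the repair polymerase (25.9 against 28.4 FPKM, -0.13), and Ogt, which glycosylates proteins and binds TET enzymes (19.7 against 21.6 FPKM, -0.13), were the 3 lower genes. Tdg, the glycosylase that removes the oxidized bases made by TET enzymes, spanned 3.20 to 4.81 FPKM in Nrp-1+ libraries against 4.18 to 5.32 FPKM in Nrp-1- libraries and did not pass (adjusted p = 0.325). TET enzymes use alpha-ketoglutarate. Of 8 genes that make or use it or clear its inhibitory relative, 2 were higher and 1 lower, with Idh3a (19.7 against 17.7 FPKM, 0.14, with overlapping groups) and Idh3g (84.5 against 79.2 FPKM, 0.094) above and Idh3b (87.2 against 95.1 FPKM, -0.12) below. Idh1 (9.37 against 9.42 FPKM, adjusted p = 0.966) and Idh2 (30.0 against 30.2 FPKM, adjusted p = 0.877) did not pass.

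S-adenosylmethionine is the methyl donor of all DNA methyltransferases. Of 13 tested genes of its cycle, 5 were higher and 2 lower, with a median of 0.056. Ahcy, which clears the inhibitory product of methylation reactions, was at 103 against 75.2 FPKM (log2 difference 0.45, adjusted p = 3.56e-06 by limma). Shmt2, the mitochondrial enzyme that feeds the folate pool, was at 31.3 against 23.6 FPKM (0.39). Mat2b, the regulatory subunit of the synthetase, was at 79.5 against 88.0 FPKM (-0.14). Its catalytic subunit Mat2a, named here after its values were seen, moved the other way (57.4 against 49.3 FPKM, log2 difference 0.21, adjusted p = 0.00023 by limma).

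**Figure D5:**
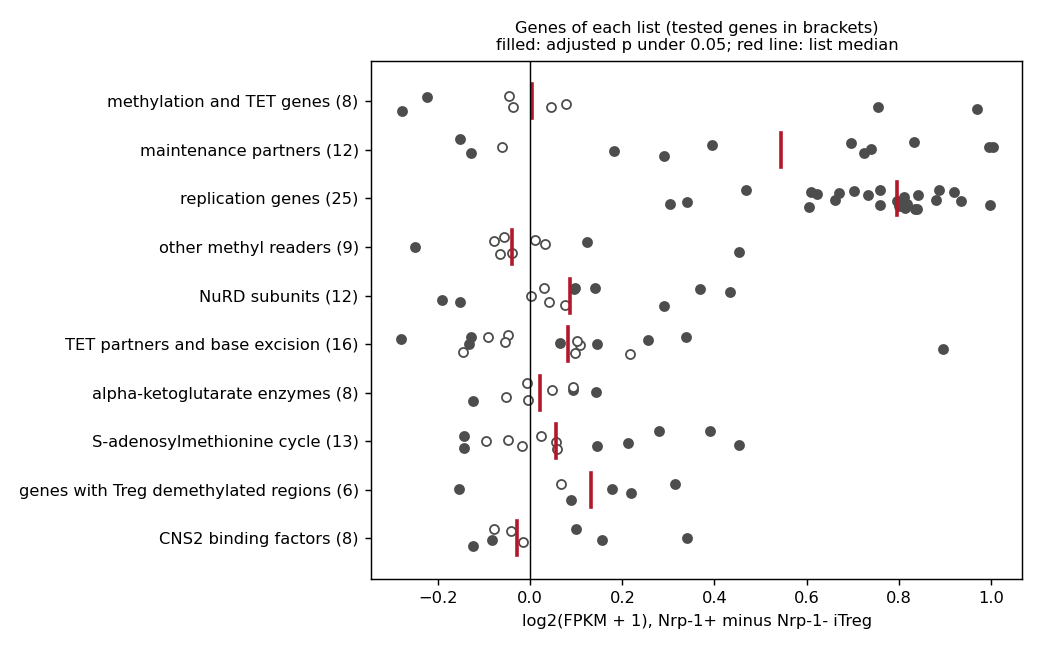
Difference in log2(FPKM + 1), Nrp-1+ minus Nrp-1- iTreg (horizontal axis), of the tested genes of 10 lists, with filled points at an adjusted p under 0.05 and a red line at each list's median. The replication genes (median 0.80) and maintenance partners (0.54) lie to the right, and the medians of the other 8 lists lie between -0.040 and 0.13.

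Foxp3 is among the genes known to carry demethylated regions in regulatory T cells. Of 6 such genes, 4 were higher and 1 lower, with a median of 0.13. Foxp3 was at 111.5 to 120.5 FPKM in the Nrp-1+ subset and 107.1 to 109.9 FPKM in the Nrp-1- subset, a log2 difference of 0.089 (adjusted p = 0.0245 by limma). Ikzf2, which encodes Helios, was at 2.56 against 1.86 FPKM (0.31), Il2ra, a subunit of the IL-2 receptor, at 266 against 228 FPKM (0.22) and Ctla4, an inhibitory receptor, at 144 against 160 FPKM (-0.16). Of 8 factors known to bind CNS2 or to act through it, 3 were higher and 2 lower, with Cbfb (118 against 93.3 FPKM, 0.34) and Runx1 (15.6 against 13.9 FPKM, 0.16, with overlapping groups) above and Ets1 (322 against 351 FPKM, -0.12) and Stat5b (57.9 against 61.3 FPKM, -0.082) below. Methylation of the locus itself was not analysed here. By bisulfite sequencing of the TSDR, the paper reports similar methylation in Nrp-1+ and Nrp-1- iTreg.

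Markers of other cells were read as sums over each list. The summed FPKM of 3 B cell genes was 0.388 to 0.867 in Nrp-1+ libraries against 0.193 to 0.586 in the others, with Ms4a1 listed at 0 in every library. For 3 NK cell genes the sums were 3.29 to 4.37 against 3.88 to 4.99 FPKM, nearly all from Klrd1. The sums of 3 dendritic cell genes did not overlap, at 0.144 to 0.264 against 0.0378 to 0.107 FPKM. Of these Zbtb46 was higher (0.188 against 0.0643 FPKM, adjusted p = 0.0159 by limma in the fit without the filter). Cd8a was at a mean of 0.0571 against 0.0474 FPKM. The 4 myeloid genes summed to 6.92 to 7.70 FPKM in the Nrp-1+ subset and 5.88 to 7.71 FPKM in the Nrp-1- subset, most of it Itgam, which was called higher (6.70 against 5.56 FPKM). Of the 3 erythroid genes found, which summed to 5.49 to 7.54 FPKM against 2.02 to 3.26 FPKM, Hba-a1 alone was called higher (6.10 against 2.52 FPKM, adjusted p = 0.00051 by limma). Hba-a2 was at 0.0105 against 0.0111 FPKM, and Beta-s was listed at 0 in 7 of the 8 libraries. Cd8b1 was called lower (7.86 against 10.0 FPKM). Cd8b1, Itgam, Hba-a1 and, by its mean of 3.67 FPKM, Klrd1 thus reached levels above those of Tet2 and Dnmt3b in Nrp-1+ iTreg. Their part in the differences above was not tested.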

How the data were processed

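Transcripts were measured by bulk RNA sequencing in 4 libraries of each iTreg subset. Read processing by the authors used the CLC Genomics Workbench, and Cufflinks gave the deposited FPKM, with a single value for each symbol in each library. The processing notes name the builds GRCm38 and mm10, and the annotation is not given in the sources used here. Absolute depth is unknown because FPKM is not a count.

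Groups were compared on log2(FPKM + 1) by limma 3.58.1 in R 4.3.3, with an intensity trend and Benjamini-Hochberg adjustment, over genes that averaged 1 FPKM or more. Ratios were compared by exact permutation of the library labels. These tests, the promoter searches and the plots were run in Python 3.11.15 (scipy 1.17.1, numpy 2.4.6, matplotlib 3.10.9, pandas 2.3.3). The genes, lists and ratios were chosen with earlier results of these data known. The text names the 9 genes, Nrp1, Foxp3, the key partners Hells, Cdca7, Pcna, Usp7, Tdg, Ogt, Idh1, Idh2 and Mbd3, and in every other list the called genes that changed most (up to 2 in either direction), plus the 3 genes most like Uhrf1. Some genes that this rule names are not reported here. On data simulated for the comparison of the subsets (10467 genes), the test found 24%, 72%, 82% and 98% of genes changed by 0.15, 0.3, 0.6 and 1 log2 units, and 3 unchanged genes were called. The simulation changed a far smaller share of genes than the 40.9% called in the data. It also drew noise independently for each gene and library. Its rates of recovery and of false calls therefore need not hold for these data. Relative depth was read from genes under 0.3 FPKM in every library. Promoter sequences are from RefSeq.

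Alternatives were pseudocounts of 0.1 and 0.5, no filter, a filter at a mean of 5 FPKM, size factors, quantile normalization, a block for replicate number, no trend, array weights and each library left out. A correction for GC content and length, without and with that block, was chosen after seeing the data.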

Additional observations from a re-analysis of the deposited data

Results flagged for a closer look

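In 1 of the 30 groups of 4 libraries examined (9 genes and 6 ratios in each group), a library stood far from the others, where chance gives about 1 in 20. The log2 ratio of Uhrf1 to the geometric mean of Mcm2 to Mcm7 was -0.30 in replicate 4 of Nrp-1+ iTreg and -0.40 to -0.39 in the other 3 libraries of that group. Without this library the difference between the groups in this ratio was 0.17 in place of 0.19 on the log2 scale. The groups were apart with this library in, so leaving it out could not make them overlap.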

How the results depend on the processing

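Under all 19 alternatives Dnmt1 (log2 difference 0.73 to 0.77) and Uhrf1 (0.94 to 0.99) stayed higher and Tet3 (-0.26 to -0.19) lower at an adjusted p under 0.05 by limma, as did Dnmt3b (-0.36 to -0.23) under the 18 that test it. Dnmt3a, Uhrf2, Tet2 and Mbd2 kept their signs and passed under none that tests them, with the lowest adjusted p at 0.0532 for Uhrf2. With the filter at 5 FPKM, Dnmt3b was not tested and 1 described gene was called lower in place of 2. The genes called over the whole table numbered 1588 to 2298 higher and 1675 to 2747 lower. Replicate numbers showed no pairing by correlation: the deviations of same-numbered libraries from their group means correlated at -0.54 to 0.010, and no Nrp-1+ library correlated best with its own number. Between differently numbered libraries, replicate 3 of Nrp-1+ iTreg correlated at -0.55 with replicate 1 of Nrp-1- iTreg and at 0.60 with replicate 4. Correlations of this kind cannot show whether same-numbered libraries shared a mouse or culture. With the replicate block the adjusted p was 0.000124 for Dnmt1 and Uhrf1, 0.0135 for Dnmt3b and 0.0233 for Tet3, and 1931 genes were higher and 1675 lower. In ratios, an exact sign-flip test over the replicate numbers as a block cannot go below 0.125 and gave that value for all 6 differences, of 0.23 (Uhrf1 to Dnmt1), 0.91 (Uhrf1 to Uhrf2), -0.42 (Dnmt3b to Dnmt3a), -0.18 (Tet3 to Tet2), 0.19 (Uhrf1 to Mcm2 to Mcm7) and -0.036 (Dnmt1 to Mcm2 to Mcm7). With 1 library left out the exact test cannot go below 0.0571, which the first 5 reached each time, with differences from 0.20 to 0.24, 0.87 to 0.93, -0.50 to -0.37, -0.22 to -0.12 and 0.17 to 0.20. The groups of these 5 ratios did not overlap with all libraries in. Their p values in both the sign-flip and the leave-out tests were thus fixed in advance. The ratio of Dnmt1 to Mcm2 to Mcm7 reached 0.0571 by the exact test without replicate 3 of Nrp-1- iTreg (-0.050), and its range was -0.050 to -0.028. The low levels of Tet1 and Dnmt3b limit what could be detected in them.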

Other observations

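The 3 genes whose pattern over the 8 libraries was most like that of Uhrf1 among the 8140 others with a mean of at least 5 FPKM were Ncapd2, a condensin subunit (Pearson r = 0.999 on log2(FPKM + 1)), and the helicase subunits Mcm5 (r = 0.999) and Mcm2 (r = 0.999). The 8 points fall into the 2 groups, so r mostly measures the group difference. Ncapd2 was at 129.5 against 70.1 FPKM and Mcm2 at 43.5 against 25.7 FPKM.

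Germline genes that promoter methylation is known to silence in somatic cells were nearly all at or near 0. Of 12, 5 were listed at 0 in all libraries, and the list summed to 3.30 to 3.70 FPKM in the Nrp-1+ subset and 2.83 to 2.99 FPKM in the Nrp-1- subset, most of it from Tdrkh. Tdrkh, the only one tested, was at 2.5 ± 0.0956 FPKM (SD, n = 4) and 1.71 ± 0.101 FPKM (adjusted p = 0.000772 by limma). Brdt, under the filter, was at 0.822 against 1.07 FPKM, with overlapping groups and an adjusted p of 0.0370 by limma in the fit without the filter.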
